A study of Rattus norvegicus with 4 samples.

Results

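Peaks of the transcription factor YY1 that scored 100 or more in irradiated rat skin and had no peak of nonirradiated skin nearby are described here. They were chosen by measured values of the irradiated peak list, under 3 conditions: a deposited score of at least 100, a position on chromosomes 1 to 20, and no peak of the nonirradiated list within 1 kb. Of the 16934 irradiated peaks, 16592 were autosomal, and 2678 of these met all conditions (16.1% of the autosomal peaks), which are called strong peaks below. The other 13914 autosomal peaks of the same list served as the comparison. Score and distance to the nonirradiated list chose the members, so both are given as description, and no measure of this list was tested.

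The series holds chromatin immunoprecipitation followed by sequencing (ChIP-seq) of YY1 from rat skin. All animals were male Sprague-Dawley rats of 4 weeks, an outbred stock. Skin of the irradiated group received a single electron-beam dose of 45 Gy, and the nonirradiated group came from a skin area that was not irradiated. Each group had 1 YY1 ChIP library and 1 input library (chromatin sequenced without the antibody step). Group membership follows the tissue source in the labels. The titles call the irradiated libraries NC and the others Norm without defining either, and if NC stands for another kind of control, the strong peaks would not belong to irradiated skin. The sources used here do not give the time from irradiation to sampling, or whether a library came from 1 animal or several. No library had a replicate.

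YY1 (Yin Yang 1) is a zinc-finger protein found in nearly all cell types. It binds promoters and enhancers, can switch genes on or off depending on its partners, and is known for helping enhancers and promoters come together. Skin after high-dose radiation can scar by fibrosis, in which fibroblasts deposit excess collagen under the drive of TGF-beta signalling. A ChIP-seq peak marks a stretch where immunoprecipitated fragments pile up above background. It shows enrichment in the tissue as a whole, and in skin, which mixes keratinocytes, fibroblasts and immune cells, it does not show in which cells the protein was bound.

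Positions are on rat build rn5, counted from 1. No sequence or gene annotation of that build was used here, so the regions carry no gene names and no sequence is shown. The score is the peak caller's own value and behaves as a p-value on a negative log10 scale multiplied by 10. Read totals are unknown, so the depth behind the scores is unknown too.

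Among the strong peaks the median score was 130 (25th to 75th percentile 111 to 154), and the scores ran from 100 to 431.38. Scores of 200 or more were held by 101 strong peaks (3.77%, Wilson 95% interval 3.11 to 4.56), and 4 reached 300. The remaining autosomal peaks had a median of 65.5 (57.6 to 77.5). Most strong peaks therefore lay in the lower part of their own range, nearer to the threshold than to the top.

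The 10 highest scores were spread over 9 chromosomes, and all 10 peaks were short. At the top stood chr5:85746581-85746780, 200 bases wide, with a score of 431.38. Next came chr3:74283029-74283283 (255 bases), which scored 398.16. The peak at chr4:23075605-23075804 (200 bases) scored 337.88 and lay 745 kb from any nonirradiated peak. At chr1:156697405-156697660 (256 bases) the score was 323.15. These 4 are the strong peaks above 300.

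Below them, chr14:42936970-42937233 (264 bases) and chr18:60413700-60413988 (289 bases) scored 294.11 and 293.87. The peak at chr2:54804959-54805288, at 330 bases the widest of the 10, scored 291.49 and was 906 kb from the other list. On chromosome 8, the peak at 104508834-104509033 scored 287.19. A second one there, at 11779368-11779567, tied at 279.81 with chr15:84619361-84619560, and these last 3 were each 200 bases wide. None of the 10 had another irradiated peak closer than 6.36 kb, the gap of the chromosome 18 peak. The gaps of the others ran from 28.8 to 107 kb. Over all autosomal irradiated peaks the median gap was 52.6 kb (25th to 75th percentile 20.9 to 107).

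The score minimum fell just above a large tie, in a part of the list where peaks were becoming fewer with score. Just inside it were chr15:103049663-103050349, chr3:166581902-166582388 and chr6:94687092-94687378, with scores of 100, 100.02 and 100.05. Just outside were chr6:149784325-149784908 and chr8:86147546-86148110, both at 99.96, and chr2:206393005-206393587 at 99.94. Between 99 and 100 lay 398 autosomal peaks, of which 354 had the identical score of 99.77. Only 28 strong peaks scored under 101.

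Scores repeated within the list, and in the strong peaks the repeats gathered on fewer values. Their 2678 scores took 638 distinct values, and 2211 peaks (82.6%, 81.1 to 84.0) had a score that at least 1 other strong peak also had. Among the 13914 remaining peaks 92.4% (92.0 to 92.9) were tied in this way, and a larger set in a narrower score range has more ties, so tying in itself was not particular to the strong peaks. The commonest were 111.07 (302 peaks), 134.54 (300), 122.67 (249), 171.68 (213) and 146.68 (132). The 10 commonest values together held 1484 strong peaks (55.4%, 53.5 to 57.3), against 15.9% (15.3 to 16.6) of the remaining peaks at their own 10 commonest values. Within such a tie the score gives no order.

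**Figure D1:**
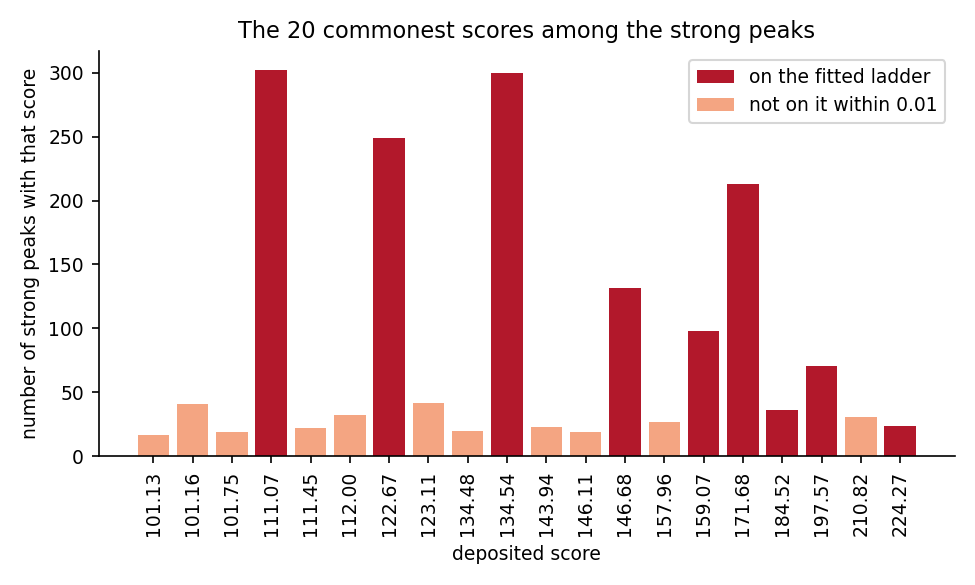
Number of strong peaks (vertical axis) at each of their 20 commonest deposited scores (horizontal axis, in score order), with bars coloured by whether the score lies within 0.01 of a step of the fitted ladder. The highest bars, at 111.07, 122.67, 134.54 and 171.68, hold 302, 249, 300 and 213 peaks and lie on the ladder.

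The repeated values formed a ladder. Each step is the negative log10, multiplied by 10, of the probability of at least that many counts under a Poisson law, and the mean that matched most autosomal scores of the list was 1.04 (3090 scores within 0.01, against 735 for the next best mean). Step 14 corresponds to a score of 111.07, step 16 to 134.54 and step 19 to 171.68. Of the strong peaks, 1438 (53.7%, 51.8 to 55.6) stood on this ladder, against 1652 of the remaining peaks (11.9%, 11.3 to 12.4). Over all autosomal peaks this share rose with score up to 200, on both sides of 100. It was 0.114% at scores of 50 to 60, 9.22% at 60 to 70, 18.5% at 70 to 80 and 29.2% at 80 to 100. It was 33.2% at 100 to 120, 62.6% at 120 to 150, 70.8% at 150 to 200 and 37.3% at 200 or more. The contrast therefore describes the selection by score. A further 31 strong peaks at 210.82 missed step 22 by 0.011.

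Width set the strong peaks apart from the rest of the list most plainly. Their median width was 269 bases (25th to 75th percentile 250 to 353), against 501 bases (416 to 567) for the remaining peaks, a ratio of 0.537. Widths under 300 bases were found in 1754 strong peaks (65.5%, 63.7 to 67.3) and in 483 of the remaining (3.47%, 3.18 to 3.79). The narrowest width in the list, exactly 200 bases, was held by 308 autosomal peaks, and 299 of these were strong peaks. The strong peaks made up 16.1% of the autosomal peaks but 11.3% of the bases the list covered (0.882 of 7.79 Mb). Width comes from the same library as the score, so this contrast describes the list and is not independent of how the peaks were chosen.

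Median width fell with score from the lowest scores up to 200, on both sides of 100, and was no lower above 200. Median width was 546 bases at scores of 50 to 60, 479 at 60 to 70, 465 at 70 to 80 and 423 at 80 to 100. It was 333 bases at 100 to 120, 264 at 120 to 150, 228 at 150 to 200 and 255 at 200 or more. Over steps 10 to 17 of the ladder the medians also fell on both sides of the threshold: the remaining peaks had medians of 380, 355, 325 and 317 bases at steps 10, 11, 12 and 13, and the strong peaks 289.5, 274, 259 and 250 bases at steps 14, 15, 16 and 17. From there on they went up and down, with 254 bases at step 18, 200 at step 19 and 262 at step 20.

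**Figure D2:**
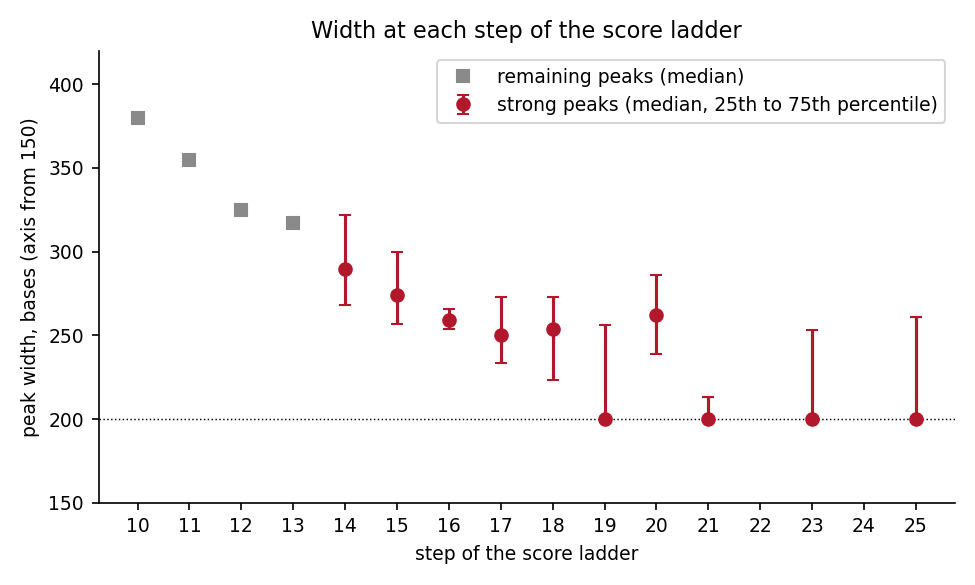
Median peak width in bases (vertical axis, starting at 150) at each step of the score ladder (horizontal axis), for strong peaks (circles, bars from the 25th to the 75th percentile; steps with at least 5 of them) and remaining peaks (squares; steps with at least 100). Widths fall from 380 bases at step 10 to 250 at step 17, and the medians sit at 200 bases at steps 19, 21, 23 and 25 but at 262 at step 20.

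The 299 strong peaks of exactly 200 bases lay at the narrowest width of the list and mostly had high scores. Their median score was 171.68, and 252 of them (84.3%, 79.7 to 88.0) scored 150 or more, compared with 349 of the 1455 strong peaks of 201 to 299 bases (24.0%, 21.9 to 26.2). Their scores took 43 values, of which 171.68 (119 peaks) and 197.57 (50) were the commonest. On the ladder, 189 of them stood on odd steps (19, 21, 23, 25 and 27) and 0 on even steps. The other 110 of the 299 were off the ladder. The strong peaks at steps 18 and 20 numbered 98 and 36, and the narrowest of each was 201 bases wide. The 31 strong peaks at 210.82, next to step 22, also began at 201 bases.

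Strong peaks of 300 bases or more scored lower than the narrower ones. The 563 of 300 to under 500 bases had a median score of 114, against 134.54 for those of 201 to 299 bases. A width of 500 bases or more was found in 361 of them (13.5%, 12.2 to 14.8), with a median score of 115. The widest were chr6:149086982-149088982 (2001 bases, score 109.1), chr2:6031440-6032763 (1324 bases, score 127.21) and chr2:237653683-237654942 (1260 bases, score 104.69). The 361 took 308 distinct scores, and 1 of them stood on the ladder.

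Most scores of wide peaks, but not all, matched the same law once width entered it. A Poisson mean of 1.04 for widths up to 400 bases, growing in proportion to width beyond that, placed 6482 of 9148 remaining peaks wider than 450 bases (70.9%) within 0.02 of a whole count. The next best width in place of 400 placed 298. This form was chosen after the scores had been seen. Applied to the strong peaks, it gave 1909 of 2678 (71.3%, 69.5 to 73.0) an implied count, and 274 of the 361 wide ones (75.9%, 71.2 to 80.02). Of the remaining peaks, 9307 of 13914 (66.9%, 66.1 to 67.7) had one, so the 2 groups stood much closer than on the ladder. An implied count is calculated from score and width. It is not a deposited read count.

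The implied counts of the strong peaks and of the peaks scoring under 100 overlapped. The median was 16 in strong peaks (25th to 75th percentile 15 to 18, range 14 to 35) and 11 in peaks scoring under 100 (10 to 12, range 9 to 18). Strong peaks of 200 bases had a median of 19, those of 500 bases or more 17. Of the 9281 peaks under 100 that had an implied count, 431 (4.64%, 4.23 to 5.09) reached 14 or more, with a median width of 620 bases. At an implied count of 14, the 359 strong peaks had a median width of 299 bases and at most 487, while the 290 peaks scoring under 100 were at least 489 bases wide. At 15, the 349 strong peaks were at most 581 bases wide and the 106 others at least 584. At each of these counts the widths of the 2 groups did not overlap, which follows from a score set by count and width together. The strong peaks held a median of 5.54 implied counts per 100 bases (4.09 to 6.90) and the peaks under 100 held 2.15 (1.89 to 2.54). Implied counts come from score and width, and score chose the strong peaks. A count of 13 scores at most 99.77, so the lower limit of 14 follows from the rule. The differences in count and in counts per 100 bases likewise describe the selection and are no separate result.

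**Figure D3:**
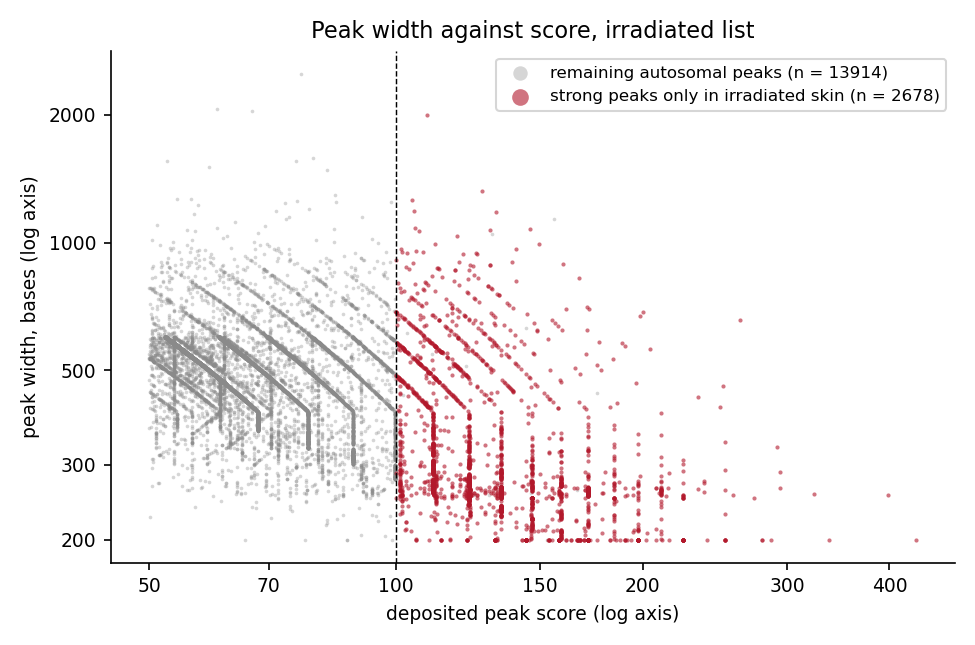
Peak width in bases against deposited score (both axes logarithmic) for the 2678 strong peaks and the 13914 remaining autosomal peaks of the irradiated list, with the score of 100 as a dashed line. Vertical lanes below 400 bases are the tied scores, curved lanes above it are peaks of equal implied count, and the row at 200 bases holds 299 strong peaks of 308.

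No implied count was found for 769 strong peaks. Their median width was 262 bases and their median score 123, against 272 bases and 134.54 for those with one. The highest-scoring strong peak, on chromosome 5, was among them, whereas the chromosome 3, 4 and 1 peaks that followed it had implied counts of 35, 31 and 30.

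Spacing along the chromosomes did not set the strong peaks apart. The gap to the nearest other irradiated peak had a median of 52.1 kb (25th to 75th percentile 21.0 to 105) for strong peaks and 52.6 kb (20.8 to 107) for the remaining peaks. Another irradiated peak lay within 10 kb of 357 strong peaks (13.3%, 12.1 to 14.7) and of 1871 remaining peaks (13.4%, 12.9 to 14.0). Within 1 kb the numbers were 40 (1.49%, 1.10 to 2.03) and 242 (1.74%, 1.53 to 1.97). The nearest irradiated neighbour was itself a strong peak for 461 strong peaks (17.2%, 15.8 to 18.7) and for 2261 remaining peaks (16.2%, 15.6 to 16.9). The intervals of the 2 groups overlapped at each of these distances. They cover counting error only.

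Close pairs of strong peaks were few, but the strong peaks were only 16.1% of the autosomal peaks. A wider spacing between them than between all peaks follows from that share and is no separate result. Successive strong peaks on a chromosome were a median of 644 kb apart, 66 had another strong peak within 10 kb and 6 within 1 kb. Those 6 formed 3 pairs. On chromosome 11, a peak at 18844298-18844789 (492 bases, score 110.15) was followed after 415 bases by one at 18845205-18845404 (200 bases, 171.68). On chromosome 3, 580 bases separated 129086443-129086811 (369 bases, 122.04) from 129087392-129087591 (200 bases, 197.57). On chromosome 5, 125680098-125680332 (235 bases, 134.54) and 125681073-125681272 (200 bases, 171.68) were 740 bases apart. In each pair the peak at the higher coordinate was exactly 200 bases wide and had the higher score.

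Strong peaks occurred on every autosome. Taking each chromosome to end at its last peak of either list, density ran from 0.794 per Mb on chromosome 4 to 1.26 per Mb on chromosome 13, a ratio of 1.59, with 0.975 per Mb over all autosomes. The length of chromosome 4 includes a stretch of 66.4 Mb without a strong peak, in which 7 other irradiated peaks lay, and over its other 182 Mb the density was 1.08 per Mb. Without chromosome 4 the lowest density was 0.847 per Mb (chromosome 12) and the ratio 1.49. The density of all irradiated peaks had a ratio of 1.40 between its extremes. As a share of a chromosome's irradiated peaks, strong peaks made up between 13.7% (chromosome 15, 11.4 to 16.4) and 19.6% (chromosome 13, 16.9 to 22.5). The Wilson interval held the overall share of 16.1% on 18 of 20 autosomes. Chromosomes 13 and 5 (18.6%, 16.4 to 21.0) were the exceptions, both higher. These 20 intervals were not adjusted for their number.

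**Figure D4:**
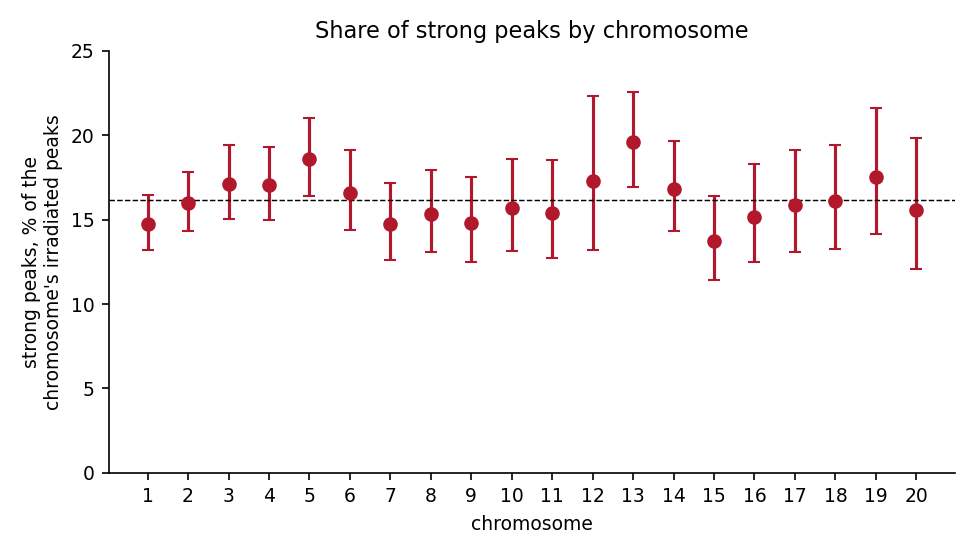
Strong peaks as a percentage of the irradiated peaks of each autosome (points) with Wilson 95% intervals (bars) and the share over all autosomes (dashed line, 16.1%). The intervals of chromosomes 5 and 13 lie above the line and those of the other 18 cross it.

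Position within the chromosome made little difference. With each chromosome divided into 10 equal segments, each segment held between 8.66% and 11.2% of the strong peaks, and between 8.76% and 11.2% of the remaining peaks. The share of strong peaks among all irradiated peaks ranged from 14.8% (13.2 to 16.5) in segment 7 to 17.6% (15.9 to 19.5) in segment 3. The interval held the overall share in 10 of 10 segments.

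In windows of 1 Mb the strong peaks were thinly spread. Of 2604 complete autosomal windows with any peak of either list, 951 held no strong peak, 956 held 1, 464 held 2 and 166 held 3. Another 133 complete windows held no peak of either list. Over all 2737 windows the variance of the number per window was 1.11 times its mean of 0.975. For the remaining peaks it was 1.38 times their mean of 5.06. Uneven density raises this ratio more at a higher mean, so the 2 ratios do not show which group was more evenly spread. Fullest were chr6 from 76 to 77 Mb and chr18 from 49 to 50 Mb, with 7 strong peaks each beside 9 and 3 remaining peaks. The window on chr11 from 18 to 19 Mb, which contains the closest pair, held 6 strong and 11 remaining peaks. These windows held 3, 2 and 4 nonirradiated peaks. Over the 2737 windows the number of strong peaks correlated with that of remaining peaks at 0.131 (Pearson) and 0.138 (Spearman), and with that of nonirradiated peaks at 0.0518 and 0.0697. Without the 133 empty windows, a choice that depends on the counts themselves, the values were 0.0445 and 0.0489, and -0.0279 and -0.0247. Windows are not replicates, and at about 1 strong peak per window counting error lowers such values, so they describe these lists only.

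The distance to the nonirradiated list was fixed by the rule at its lower end only. Of the 2719 autosomal irradiated peaks that scored 100 or more (16.4% of the autosomal peaks), 2678 had no nonirradiated peak within 1 kb (98.5%), against 98.4% of all autosomal peaks and 98.4% of those scoring under 100. Lack of a nearby nonirradiated peak was therefore as common among weak as among strong irradiated peaks. Read coverage was not analysed here, and a missing peak call is no measure of YY1 loss.

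Beyond 1 kb the distances of strong and remaining peaks nearly coincided. The nearest nonirradiated peak lay a median of 99.4 kb from a strong peak (25th to 75th percentile 40.8 to 195). Among the 13656 remaining peaks that also had none within 1 kb, the median was 94.0 kb (38.1 to 192). A nonirradiated peak stood within 10 kb of 171 strong peaks (6.39%, 5.52 to 7.38) and of 930 of those remaining peaks (6.81%, 6.40 to 7.24). The nearest nonirradiated peaks themselves had a median score of 60.7 beside strong peaks and 60.9 beside remaining peaks.

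**Figure D5:**
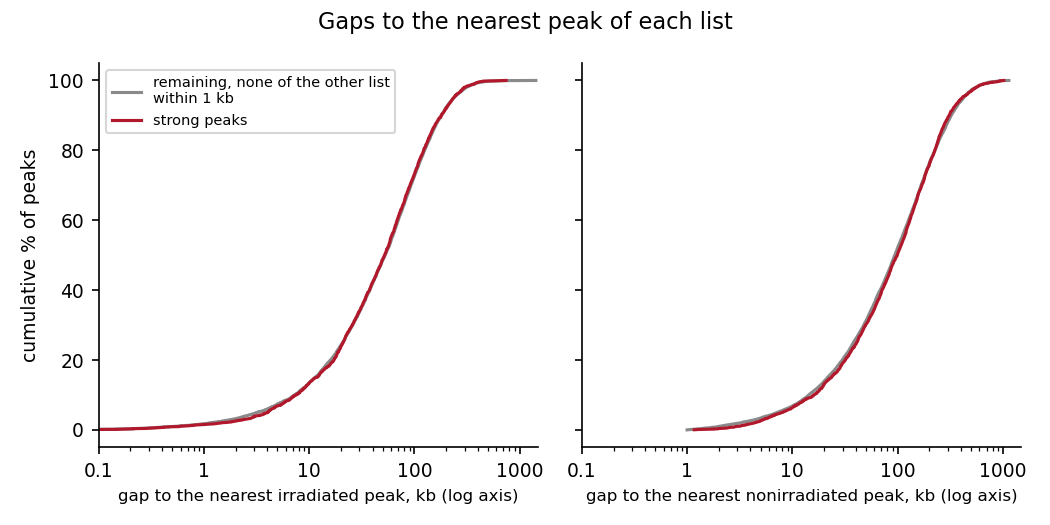
Cumulative percentage of peaks (vertical axis) by the gap in kb (logarithmic axis) to the nearest other irradiated peak (left) and the nearest nonirradiated peak (right), for strong peaks and for remaining peaks with no nonirradiated peak within 1 kb. The curves nearly coincide, with medians of 99.4 and 94.0 kb in the right panel.

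Nearest to the other list were the strong peaks at chr17:77946199-77946460 (score 123.11), chr17:25772328-25772593 (134.54) and chr18:7125695-7125956 (101.16), with gaps of 1170, 1228 and 1287 bases. Farthest were chr9:101793971-101794225 (210.82) at 1021 kb, chr15:33194770-33194969 (132.24) at 988 kb and chr3:103030258-103030539 (113.61) at 953 kb. None of these 6 was wider than 282 bases, but 65.5% of all strong peaks were under 300 bases, so this tells nothing about distance.

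The distance condition removed 41 peaks that scored 100 or more, of which 11 overlapped a nonirradiated peak. Just outside the limit were chr1:206107515-206107785 (score 122.67, gap 909 bases), chr5:4488725-4488986 (134.54, 892 bases) and chr13:74503991-74504249 (134.54, 852 bases). Over the 41, median width was 294 bases (25th to 75th percentile 258 to 485) and median score 124, and 21 were under 300 bases (51.2%, 36.5 to 65.7) against 65.5% of the strong peaks.

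Measured in the same way, the nonirradiated list gave 638 autosomal peaks that scored 100 or more with no irradiated peak within 1 kb, 6.85% of its 9318 autosomal peaks. Their median width was 402 bases (25th to 75th percentile 281 to 675), 0.746 times that of the rest of their list. The narrowest was 203 bases. The score depends on each library's own depth, so the same minimum selects differently in each list, and with 1 library per skin area the difference in width was not tested.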

How the data were processed

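YY1 ChIP-seq peak lists of 2 libraries, 1 from irradiated and 1 from nonirradiated skin, were used. Per the submitters' processing notes, reads were handled with cutadapt 1.9.1 and Bowtie2 2.2.4 on build rn5. The authors deposited a score per peak, and the deposited peak identifiers name MACS as the caller, without its version. The names of the deposited lists carry the values 1e-05, 10 and 30, whose meaning is not stated there. The lowest irradiated score, 50.01, corresponds to a p of 1e-05. Library depth is not known.

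Strong peaks were selected by the rule in the report, with gaps measured between interval edges. Members, lists and alternatives were chosen with earlier results of these data known. Named regions are the 10 highest scores, the 3 widest, the narrowest with the highest scores, the closest pairs, the nearest and farthest from the other list, those at each threshold and the 3 fullest windows. Shares carry Wilson 95% intervals, for counting error only. With 1 library per group no test was run. On simulated data the gap routine recovered 988 of 988 planted gaps, the same as bedtools 2.31.1, and the ladder fit recovered means of 0.8, 1.3 and 2.2. The width fit recovered a planted width of 350 bases. The ladder mean was searched from 0.2 to 6. Gene lists were not used, because the gene table at hand is for another build: on 13 of 20 autosomes the last peak lies beyond its last gene. Software was scipy 1.17.1, pandas 2.3.3, numpy 2.4.6 and matplotlib 3.10.9 under Python 3.11.15.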

Additional observations from a re-analysis of the deposited data

How the results depend on the processing

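No paired analysis was possible because each group has 1 library, and none could be omitted for the same reason. Of 61 alternative values, 38 stayed within the 95% interval of the reported one (numbers of peaks within 1.5 times) and 23 did not. The share with another irradiated peak within 10 kb stayed inside under each change of membership, and was 48.9% when 50 kb was allowed. A score minimum of 80 gave 5210 peaks with a median width of 327 bases (0.639 times the remaining peaks), 84.7% tied and 41.8% on the ladder. A minimum of 200 left 101 peaks of 255 bases (0.530 times), 76.2% tied and 36.6% on the ladder. That last share leaves out 31 of the 101, at 210.82, which missed step 22 by 0.011 and so fell just outside the tolerance of 0.01. A minimum of 99, chosen after seeing the data because it takes in the tie at 99.77, gave 277 bases (0.549 times), 84.2% tied and 58.2% on the ladder. Without the widest 5% of peaks the width ratio was 0.542, with 84.9% tied and 56.0% on the ladder. Against remaining peaks of score under 70 only, the width ratio was 0.515. Scores rounded to 1 decimal were tied in 92.2%. Requiring no nonirradiated peak within 10 kb raised the median distance to 109 kb, a direction that the rule fixes. Unknown depth limits what a score or a missing peak shows.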

Other observations

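The X chromosome, which the selection left out, held 98 irradiated peaks that scored 100 or more with no nonirradiated peak within 1 kb. They were 28.7% of its 342 irradiated peaks (Wilson 95% interval 24.1 to 33.7), against 16.1% (15.6 to 16.7) on the autosomes. This is a share of the chromosome's own irradiated peaks. Density per Mb was not calculated for X, so the share does not show that strong peaks were denser there. Their median width was 263 bases, close to the 269 of the autosomal ones, and 15 were exactly 200 bases wide. On the score ladder stood 78 of them (79.6%, 70.6 to 86.4), against 53.7% (51.8 to 55.6) on the autosomes. The nearest nonirradiated peak was a median of 284 kb away, against 99.4 kb, a distance that also depends on how densely nonirradiated peaks lie on X. None of these differences was tested.

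The longest stretches without a strong peak held other peaks, but few of them. The longest, chr4:67171987-133606848 (66.4 Mb), held 7 other irradiated and 3 nonirradiated peaks. A stretch of 20.2 Mb at chr2:20849856-41024844 held 5 and 6. At chr6:6959118-21634664, 14.7 Mb held 25 other irradiated and 16 nonirradiated peaks. Over all autosomal 1 Mb windows the means were 5.06 remaining irradiated and 3.39 nonirradiated peaks per window. The stretches were thus sparse in both, and the absence of peaks was not particular to the strong ones.

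Among autosomal irradiated peaks of at most 400 bases with an implied count, the narrowest width fell as the count rose: 258 bases at a count of 14, 241 at 15, 226 at 16, 212 at 17 and 201 at 18. The product of count and narrowest width was 3612, 3615, 3616, 3604 and 3618. At a count of 13 it was 3601 and at 12 it was 3612, while at 11, where 1 peak of 313 bases was narrower than the others, it was 3443. Of the 299 strong peaks of exactly 200 bases, 190 had an implied count, and each of these counts was at least 19. The high scores of those peaks are therefore not separate from their width.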
